A study of Mus musculus with 26 samples.

Results

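The strain difference in the response of open chromatin to lipopolysaccharide (LPS) was measured in C57BL/6J and BALB/cJ Kupffer cells, which are macrophages that live in the sinusoids of the liver. The quantity described for every peak is the log2 ratio of LPS to control in C57BL/6J minus the same ratio in BALB/cJ, so a positive value means that the C57BL/6J ratio was the higher. Members were the 94036 peaks on chromosomes 1-19 among the 96381 peaks of the inbred table, without chromosome 11 from 3101961 to 3183527 and without peaks named for Sfi1, Pisd, Pisd-ps1 or Pisd-ps2, where reads of the C57BL/6J control libraries appear to have been handled differently. Of these, 92874 peaks had a mean normalised count above 4 and were tested, and 1162 did not. 13 libraries of 26 samples in the series entered the comparison, and 4 libraries of uninjected A/J mice shared the estimate of the spread in the fit. With the 13 libraries alone 48 peaks were called, 44 of them among the 56 reported here. The C57BL/6J mice injected with LPS gave 3 libraries, uninjected C57BL/6J controls 4, BALB/cJ mice injected with LPS 2, and uninjected BALB/cJ controls 4. All were male mice of inbred strains, 8 to 12 weeks old. Per the protocol in the labels, which is the same for every sample, the treated mice received 0.1 mg/kg Escherichia coli LPS into the peritoneum for 2 h after an overnight fast and the controls were fasted without injection. A figure legend of the study swaps the number of LPS libraries between the strains, and groups were taken from the labels. At the 7360 peaks called between the control groups, the log2 count plus 1 of the libraries labelled C57BL/6J LPS was nearer the C57BL/6J control mean at 80.3%, 79.6% and 75.9%, and that of the libraries labelled BALB/cJ LPS nearer the BALB/cJ control mean at 74.7% and 71.8%. The CB6F1/J hybrid, which carries a BALB/cJ and a C57BL/6J genome in the same nucleus, was represented by 5 LPS and 4 control animals and was used as an independent set of animals.

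LPS, a component of the outer membrane of Gram-negative bacteria, is held by CD14 and the TLR4-MD-2 receptor complex. The adaptors MyD88 and TRIF pass the signal to kinases that release NF-kB, activate AP-1 factors through MAP kinases and switch on IRF3, whose target interferon-beta acts back through the type I interferon receptor and STAT proteins. In macrophages these factors bind at enhancers that PU.1, C/EBP and AP-1 proteins have largely opened beforehand, and Kupffer cells meet LPS arriving from the gut through the portal vein. ATAC-seq reads such sites as DNA that a transposase can cut. The tag count at a peak therefore measures accessibility over a population of nuclei, and fewer accessible nuclei cannot be told apart from lower accessibility in each nucleus.

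Total tags were 9.95 to 25.4 M per library, apart from BALB/cJ control replicate 4 with 178.3326 M, and 15.6% to 34.3% of the tags lay in nuclear peaks, with the lowest share in C57BL/6J LPS replicate 1. Mitochondrial peaks held 18.6% to 28.7% of peak tags in 9 libraries and 0% in the 4 C57BL/6J control libraries. The headers of the deposited peak lists of these 4, unlike those of the other groups, name no shift of coordinates between strain genomes. Library names carry the date codes 20210407 for C57BL/6J LPS, 20210331 for BALB/cJ LPS and 20210213 for both control groups, so date cannot be told apart from strain within LPS or from treatment within a strain. At the promoters of Kupffer cell identity genes (26 of 30 with a peak) the summed normalised count was 2166 to 2944 in C57BL/6J LPS and 3780 to 4473 in C57BL/6J control libraries, and 2350 to 2396 in BALB/cJ LPS and 3674 to 4309 in BALB/cJ control libraries. No promoter peak was counted for the Kupffer cell gene Vsig4. Chromosomes X and Y were left out of the members, so this does not show a closed promoter. Promoters of other cell types summed to 398 to 565, 754 to 1037, 409 to 492 and 474 to 784 for monocytes (7 of 14 genes with a peak) in C57BL/6J LPS, C57BL/6J control, BALB/cJ LPS and BALB/cJ control libraries. In the same order they summed to 244 to 302, 237 to 278, 239 to 243 and 217 to 273 for neutrophils (6 of 14), and to 51.0 to 66.0, 68.9 to 117, 58.0 to 74.0 and 102 to 137 for sinusoidal endothelium (4 of 12). For stellate cells (2 of 12) they were 312 to 465, 464 to 624, 362 to 381 and 406 to 642. Hepatocyte promoters (2 of 14) summed to 14.3 to 43.3 and lymphocyte promoters (1 of 14) to 0.580 to 10.7 over the 13 libraries, and Alb, Cd3e, Stab2 and Lrat had no promoter peak. The part of these differences in the results was not tested.

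A strain difference in the response was called at few peaks. 56 peaks, 0.0603% of those tested, passed an adjusted p of 0.05 together with an absolute log2 difference over 1 (edgeR quasi-likelihood test, Benjamini-Hochberg adjustment). 22 of them (0.0237% of tested peaks) had the higher LPS ratio in C57BL/6J and 34 (0.0366%) the higher LPS ratio in BALB/cJ. Before adjustment, 7247 peaks (7.8%) had a p under 0.05, and the median difference over all tested peaks was 0.01 on the log2 scale. The median SE of a difference was 0.65, and the smallest absolute difference called was 1.33, with calls limited by rule to values over 1. The adjustment ran over every tested peak, including 80 called peaks of the chromosome 11 interval and its genes that are not members. With p-values adjusted over the 92874 members alone 32 of the 56 were called, and without BALB/cJ LPS replicate 2 the call was made at 11. All 56 kept their sign in every alternative that tested them.

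Sequences are printed for 3 peaks of each direction, those of the smallest p among the named peaks within 100 kb of a start with enough tags spanning a variant in the hybrid, because the hybrid comparison further on rests on peaks of this kind. Each is the whole 201-base peak from the plus strand of mm10, which is the C57BL/6J genome, and capitals mark matches on either strand to the motifs AP-1 (TGANTCA), NF-kB (GGNNTTTCC), ISRE (GAAANNGAA, bound by IRF and STAT complexes), PU.1 (GAGGAAGT) and MAF (TGCTGANT). The Vsig8, Zfp691 and Ifi203 peaks had the higher ratio in BALB/cJ and the Aig1, Bcl2l14 and Rsad2 peaks the higher ratio in C57BL/6J. Their coordinates are chr1:172566303-172566503 (intergenic, in an LTR element, 6.5 kb from the Vsig8 start), chr4:119178353-119178553 (the last exon, 13 of 13, of Ermap, 4.26 kb from the Zfp691 start), chr1:173961598-173961798 (the transcript end of Ifi202b, 19.03 kb from the Ifi203 start), chr10:13837784-13837984 (intron 1 of 5 of Aig1), chr6:134461219-134461419 (intron 17 of 22 of Lrp6, 46.89 kb from the Bcl2l14 start) and chr12:26439360-26439560 (intergenic, 16.99 kb from the Rsad2 start). Peaks are named here for the nearest gene start, as in the deposited annotation, which does not show that the peak acts on that gene.
Vsig8 peak: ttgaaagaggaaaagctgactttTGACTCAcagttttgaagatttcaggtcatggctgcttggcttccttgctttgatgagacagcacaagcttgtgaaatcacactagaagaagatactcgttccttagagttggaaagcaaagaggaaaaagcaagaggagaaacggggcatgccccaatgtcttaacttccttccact
Zfp691 peak: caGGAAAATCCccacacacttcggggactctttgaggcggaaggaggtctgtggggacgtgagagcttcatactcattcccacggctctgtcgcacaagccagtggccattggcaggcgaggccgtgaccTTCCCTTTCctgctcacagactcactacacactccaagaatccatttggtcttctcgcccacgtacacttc
Ifi203 peak: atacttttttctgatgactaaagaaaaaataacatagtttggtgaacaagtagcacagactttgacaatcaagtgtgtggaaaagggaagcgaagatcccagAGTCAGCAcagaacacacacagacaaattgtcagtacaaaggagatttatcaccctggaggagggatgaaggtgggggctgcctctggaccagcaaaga
Aig1 peak: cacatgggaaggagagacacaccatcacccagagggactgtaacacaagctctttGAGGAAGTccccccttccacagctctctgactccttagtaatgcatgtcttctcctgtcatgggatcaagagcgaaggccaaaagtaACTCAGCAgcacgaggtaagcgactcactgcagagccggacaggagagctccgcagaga
Bcl2l14 peak: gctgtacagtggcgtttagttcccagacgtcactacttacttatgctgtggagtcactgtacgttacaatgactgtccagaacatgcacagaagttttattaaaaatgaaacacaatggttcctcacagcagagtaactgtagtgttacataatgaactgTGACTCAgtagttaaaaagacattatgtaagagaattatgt
Rsad2 peak: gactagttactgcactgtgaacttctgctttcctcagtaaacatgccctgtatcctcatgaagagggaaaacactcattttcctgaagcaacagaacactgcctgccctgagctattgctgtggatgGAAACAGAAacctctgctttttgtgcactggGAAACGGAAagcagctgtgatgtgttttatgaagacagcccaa
The Vsig8 and Bcl2l14 sequences each held 1 AP-1 match, the Zfp691 sequence 1 NF-kB and 1 ISRE match, the Rsad2 sequence 2 ISRE matches, the Ifi203 sequence 1 MAF match and the Aig1 sequence 1 PU.1 and 1 MAF match.

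The strains' LPS ratios were positively correlated across the tested peaks, and 19.4% of these peaks had an absolute log2 difference over 1. A peak without a called difference is not shown to respond equally in both strains. LPS raised accessibility at 11092 peaks in C57BL/6J (11.9%) and at 15096 in BALB/cJ (16.3%), and lowered it at 7242 (7.8%) and 10279 (11.1%). 8815 peaks opened in both strains, which is 79.5% of those that opened in C57BL/6J and 58.4% of those that opened in BALB/cJ. 4493 peaks closed in both, or 62% of those that closed in C57BL/6J and 43.7% of those that closed in BALB/cJ. Only 8 peaks opened in C57BL/6J and closed in BALB/cJ, and 4 did the reverse. The log2 LPS ratios had a Pearson r of 0.78 across the 92874 peaks, as a description over peaks that share libraries within each strain, and an SD of 1.16 in C57BL/6J and 1.48 in BALB/cJ. Among the 17373 of 92874 tested peaks that opened in either strain the median difference was -0.55, and 48 of them were among the 56 called peaks. These 17373 were chosen on the same LPS ratios that make up the difference, and more of them opened in BALB/cJ. Their median and the count of 48 therefore describe the selected set and are no separate test. The called peaks lay to either side of the bulk of this distribution, as the plot of the responses of both strains shows.

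**Figure D1:**
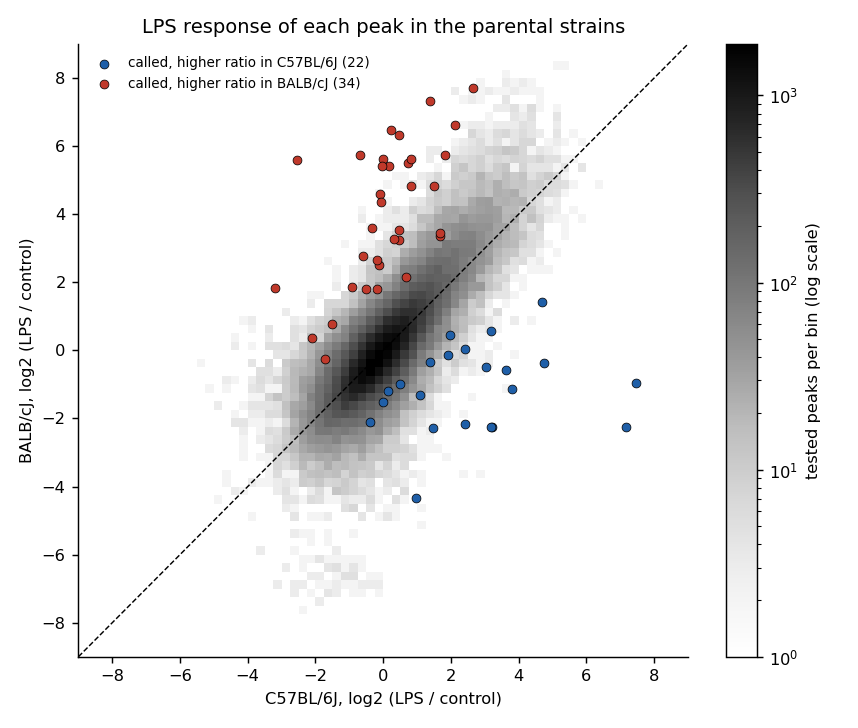
The log2 LPS to control ratio, C57BL/6J along the x axis and BALB/cJ along the y axis, with all 92874 tested peaks as grey bins on a log scale and the called peaks as coloured points, 22 with the higher ratio in C57BL/6J and 34 with the higher ratio in BALB/cJ. The dashed line marks equal response, and Pearson r is 0.78 across peaks. The BALB/cJ-direction points have a median C57BL/6J ratio of 0.08 and a median BALB/cJ ratio of 3.97.

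At the 34 peaks with the higher ratio in BALB/cJ, accessibility was typically present in C57BL/6J with or without LPS, nearly absent in BALB/cJ controls and gained in BALB/cJ under LPS. 31 of the 34 opened under LPS in BALB/cJ, 24 of them without a call in C57BL/6J and 6 with a call in the same direction, and 1 closed in C57BL/6J. The remaining 3 closed in C57BL/6J without a call in BALB/cJ. The strain ratio in control was called as higher in C57BL/6J at 30 of the 34 peaks, where 7.92% of all tested peaks were called in either direction, and at 20 of those 30 it was not called under LPS, where 5.54% were. The median log2 C57BL/6J to BALB/cJ ratio was 0.25 under LPS and 4.04 in control. These strain ratios use the same libraries as the difference in response, so they describe its shape and are no separate test of it.

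The Ece1 peak had the smallest p. It lies in intron 1 of 19 of Ece1 (chr4:137879666-137879866), which encodes endothelin-converting enzyme, a membrane protease that activates the vasoconstrictor endothelin. Its normalised counts, that is tags scaled by TMM factors to a common effective library size, were 30.9, 33.1 and 29.5 in C57BL/6J LPS libraries, against 26.1, 40.1, 28.6 and 39.9 in C57BL/6J controls. They were 61.9 and 38.7 in BALB/cJ LPS libraries, against 0, 0.975, 1.34 and 2.76 in BALB/cJ controls. The C57BL/6J groups overlapped and the BALB/cJ groups were far apart, with a log2 LPS ratio of -0.09 ± 0.36 (SE) in C57BL/6J and 4.60 ± 0.46 in BALB/cJ. The difference was -4.69 ± 0.60 (edgeR adjusted p = 9.41e-06).

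The Vsig8 peak, near a gene for an immunoglobulin-domain membrane protein, had the same shape. Counts were 74.4, 118 and 125 in C57BL/6J LPS and 95.7, 159, 67.6 and 41.2 in C57BL/6J control libraries. In BALB/cJ they were 47.0 and 51.9 under LPS, against 1.32, 2.93, 1.34 and 0 in controls. The difference was -6.24 ± 0.82 (edgeR adjusted p = 1.84e-05), and under LPS the strain ratio of 1.11 ± 0.47 was not called. The Ece1 and Vsig8 peaks and an intergenic peak 68.86 kb from 4930529L06Rik (-4.77 ± 0.64) were the 3 that stayed called in every alternative.

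Some sites gained accessibility in BALB/cJ without reaching the C57BL/6J level. The peak in intron 4 of 6 of Nsmce2, 136.91 kb from Trib1 (chr15:59511647-59511847), had 105, 161 and 145 normalised counts in C57BL/6J LPS and 82.9, 124, 93.6 and 102 in C57BL/6J control libraries. BALB/cJ had 27.0 and 13.2 under LPS and 3.96, 1.95, 2.68 and 1.20 in control. Trib1 is a pseudokinase that brings C/EBP proteins to a ubiquitin ligase, and the strain ratio at this peak stayed called under LPS (2.77 ± 0.34, against 5.84 ± 0.35 in control). The difference was -3.07 ± 0.50 (edgeR adjusted p = 0.000741), and it was lost without BALB/cJ control replicate 4 or BALB/cJ LPS replicate 1. The peak 14.02 kb from Ifnar2 (chr16:91358662-91358862), the gene of a type I interferon receptor subunit, had 40.7, 59.4 and 54.2 in C57BL/6J LPS against 22, 30.5, 40.3 and 26.6 in C57BL/6J control libraries. BALB/cJ had 7.84 and 8.79 under LPS against 0, 0, 1.34 and 0 in control, so neither the treatments nor the strains overlapped. Its difference was -4.82 ± 0.96 (edgeR adjusted p = 0.0142), lost without BALB/cJ control replicate 4 or BALB/cJ LPS replicate 2.

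The peak 22.16 kb from Odc1 (chr12:17522618-17522818), which encodes the rate-limiting enzyme of polyamine synthesis, had no tag in any BALB/cJ control library. BALB/cJ LPS libraries had 2.61 and 10.6 normalised counts. C57BL/6J libraries had 33.7, 17 and 43.8 under LPS and 27.8, 28.9, 23.4 and 10.6 in control. The fitted difference at such a peak (-5.85 ± 1.13, edgeR adjusted p = 0.013) depends on a prior count and is no bound, and the call was lost without BALB/cJ control replicate 4 or BALB/cJ LPS replicate 2. 5 called peaks had a group with no tag, 3 of them in BALB/cJ controls (Odc1, Fat4 and Ifi204) and 2 in C57BL/6J controls (Dclre1a and Sp110), as did 0.941% of tested peaks.

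Ifitm10 belongs by sequence to the family of interferon-induced transmembrane proteins, and its peak opened in both strains. The peak in intron 2 of 2 (chr7:142363171-142363371) had 99.7, 209 and 182 in C57BL/6J LPS and 38.8, 61.0, 48.1 and 39.9 in C57BL/6J control libraries. BALB/cJ had 72.3 and 111 under LPS and 7.91, 0, 1.34 and 1.11 in control. LPS and control libraries did not overlap in either strain, and the log2 ratio was 1.83 ± 0.37 in C57BL/6J and 5.75 ± 0.57 in BALB/cJ, a difference of -3.92 ± 0.70 (edgeR adjusted p = 0.00378). Without BALB/cJ control replicate 4 or BALB/cJ LPS replicate 2 it was not called.

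The Ifi203 peak, whose sequence is given above and which lies in the cluster of PYHIN genes for DNA-binding interferon-inducible proteins, was the only named one of this direction that was less accessible in C57BL/6J with and without LPS. It had 5.62, 3.40 and 9.56 in C57BL/6J LPS against 23.8, 20.9, 37.7 and 27.9 in C57BL/6J control libraries, and 251 and 252 in BALB/cJ LPS against 247, 167, 149 and 222 in BALB/cJ control libraries. It thus closed in C57BL/6J (-2.10 ± 0.36) and was not called in BALB/cJ (0.35 ± 0.24), with a difference of -2.45 ± 0.44 (edgeR adjusted p = 0.00319). A neighbouring PYHIN gene, Ifi204, had a called peak in intron 1 of 8 with 5.62, 28.0 and 15.9 in C57BL/6J LPS and 24.3, 38.5, 15.6 and 33.2 in C57BL/6J control libraries. BALB/cJ libraries there held 0 and 8.79 under LPS and 0 in all 4 controls, so its call (-6.43 ± 1.36, edgeR adjusted p = 0.0371) turned on 1 library, and it was lost without BALB/cJ LPS replicate 2. In its counting window 67.1% of the 30-mers recur elsewhere in mm10, and reads of such copies can be assigned to the wrong copy.

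The other named peaks of this direction repeated the main shape at other genes. At the Zfp691 peak in Ermap the counts were 117, 119 and 111 in C57BL/6J LPS and 158, 97.9, 144 and 97.1 in C57BL/6J control libraries, and 37.5 and 40.5 in BALB/cJ LPS and 2.64, 7.80, 12.1 and 6.27 in BALB/cJ control libraries. The peak 2.8 kb from Ppp1r15a, which encodes the stress-inducible subunit that directs dephosphorylation of eIF2-alpha, lies at the transcript end of Tulp2 and had 8.43, 14.4 and 9.56 in C57BL/6J LPS and 12.8, 19.3, 10.4 and 13.3 in C57BL/6J control libraries. BALB/cJ libraries there had 23.5 and 26.4 under LPS, above every C57BL/6J library, and 2.64, 0.975, 4.03 and 1.66 in control. Mean counts at the peak 35.47 kb from Dnah7a, a dynein heavy chain of cilia, were 76.0 ± 7.53 (SD, n = 3) in C57BL/6J LPS and 85.7 ± 12.6 (n = 4) in C57BL/6J control, and 12.2 ± 3.63 (n = 2) in BALB/cJ LPS and 1.47 ± 1.22 (n = 4) in BALB/cJ control libraries. At the peak in intron 5 of 20 of Fgd6, 54.28 kb from the orphan nuclear receptor gene Nr2c1, the means were 27.3 ± 3.28 and 41.2 ± 7.17 in C57BL/6J LPS and control, and 12.2 ± 7.35 and 2.15 ± 1.29 in BALB/cJ LPS and control. The peaks near Ttc27 (-2.32 ± 0.46) and near B4galt3, a galactosyltransferase gene (-4.42 ± 0.89), completed the set, and the B4galt3 call was lost when p-values were adjusted over the members alone.

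**Figure D2:**
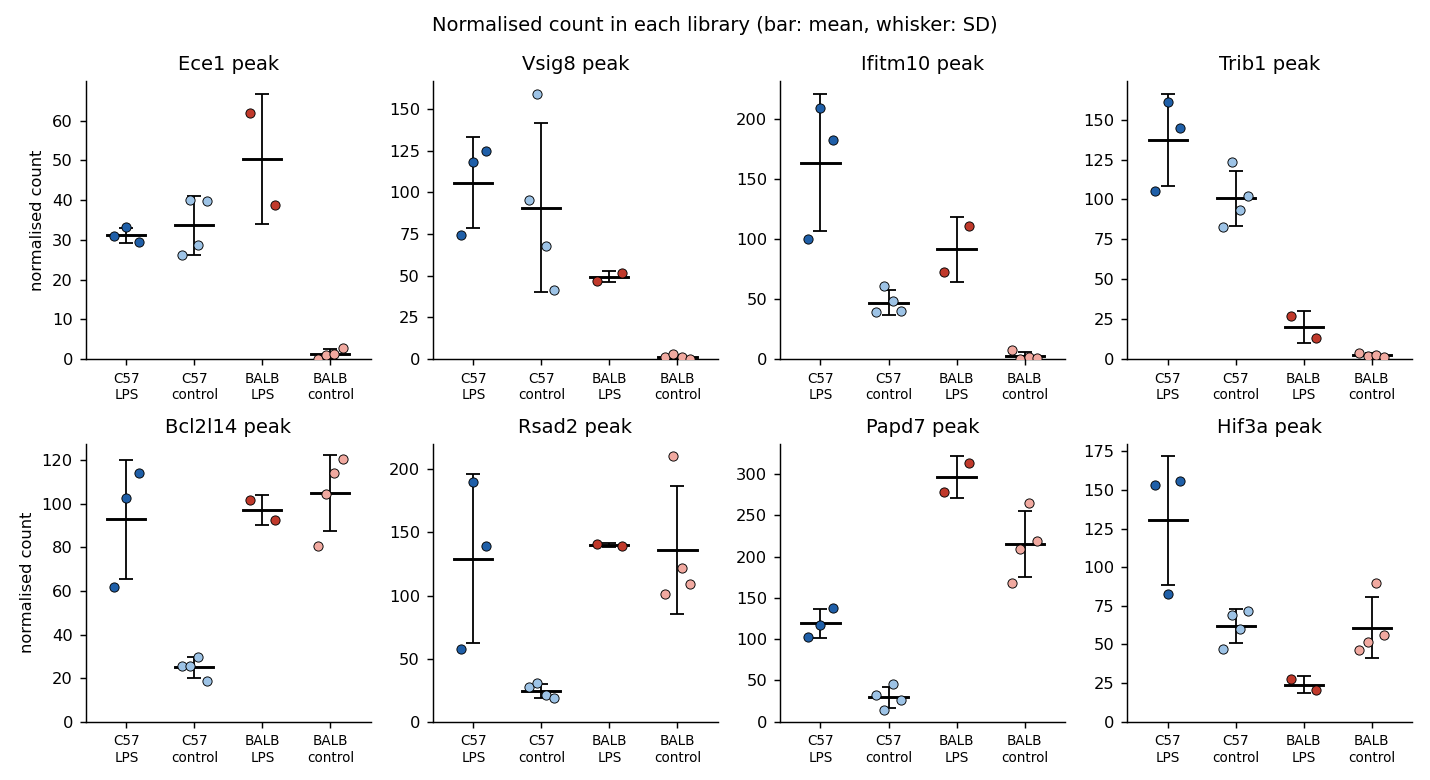
Normalised ATAC-seq count (y axis, linear from 0) in every C57BL/6J LPS, C57BL/6J control, BALB/cJ LPS and BALB/cJ control library (points) at 8 called peaks, with the group mean as a bar and the SD as a whisker. The upper row holds peaks with the higher ratio in BALB/cJ, where BALB/cJ controls lie near 0 (Ece1, 0 to 2.76), and the lower row peaks with the higher ratio in C57BL/6J, where C57BL/6J controls are lowest at Bcl2l14, Rsad2 and Papd7 and BALB/cJ LPS libraries are lowest at Hif3a.

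The 22 peaks with the higher ratio in C57BL/6J fell into several shapes. 11 opened in C57BL/6J without a call in BALB/cJ, 5 opened in C57BL/6J and closed in BALB/cJ, 4 closed in BALB/cJ without a call in C57BL/6J, 1 opened in both and 1 was called in neither. 17 of the 22 were called as lower in C57BL/6J in control, as were 4.15% of all tested peaks. 12 of the 22 had no called strain ratio under LPS, where 5.54% of all tested peaks were called in either direction. The median log2 LPS ratio of the 22 peaks was 2.42 in C57BL/6J and -1.07 in BALB/cJ. These ratios use the same libraries as the difference in response and are no separate test of it.

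6 of the 22 carry a satellite repeat label in the deposited annotation, as do 76 of the 92874 tested peaks (0.0818%). C57BL/6J LPS replicate 1 had the highest count of the 13 libraries at 5 of these 6, and 4 of the 6 were called without it. That library held 102 satellite tags per 10000 tags in peaks, against 21.9 and 26.5 in the other C57BL/6J LPS libraries, 30.0 to 77.7 in C57BL/6J controls, 18.6 and 15.7 in BALB/cJ LPS and 23.2 to 53.3 in BALB/cJ control libraries. Over all tested satellite peaks the median difference was 1.22. The named example is the peak in intron 4 of 48 of Spag17, a cilia gene (chr3:99981121-99981321). It had 47.8, 8.49 and 20.7 in C57BL/6J LPS against 3.48, 3.21, 0 and 12 in C57BL/6J control libraries, and 4.36 and 7.04 in BALB/cJ LPS against 27.7, 11.7, 24.2 and 36.5 in BALB/cJ control libraries (difference 4.59 ± 0.91, edgeR adjusted p = 0.0139). C57BL/6J LPS and control libraries overlapped, and without C57BL/6J LPS replicate 1 the peak was not called. More widely, at least 50% of the 30-mers recur elsewhere in mm10 at 5 of the 22 peaks and at 2 of the 34, or 12.5% of all called peaks, against 0.876% of tested peaks. The call was made at 29 peaks when all repeated peaks were left out.

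Several named peaks were open in BALB/cJ with or without LPS and gained accessibility under LPS in C57BL/6J. The Rsad2 peak, whose sequence with its ISRE matches is given above, lies near the gene of viperin, an antiviral interferon-stimulated enzyme. It had 57.6, 190 and 139 in C57BL/6J LPS against 27.8, 30.5, 20.8 and 18.6 in C57BL/6J control libraries. BALB/cJ had 141 and 139 under LPS against 102, 211, 122 and 109 in control. The C57BL/6J groups did not overlap, the BALB/cJ groups did, and the LPS ratio was 2.41 ± 0.32 in C57BL/6J and 0.05 ± 0.31 in BALB/cJ. The difference of 2.36 ± 0.46 (edgeR adjusted p = 0.0108) was not called without C57BL/6J LPS replicate 2 or without either BALB/cJ LPS library.

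The Bcl2l14 peak, in an intron of Lrp6, the gene of a Wnt co-receptor, while Bcl2l14 belongs to the BCL2 family, had 61.8, 103 and 114 in C57BL/6J LPS against 25.5, 25.7, 29.9 and 18.6 in C57BL/6J control libraries. BALB/cJ had 102 and 92.3 under LPS against 80.4, 104, 114 and 120 in control. The strain ratio was -0.05 ± 0.29 under LPS and -2.08 ± 0.26 in control, and the difference 2.03 ± 0.39 (edgeR adjusted p = 0.0106). That call was lost without BALB/cJ LPS replicate 1 or BALB/cJ LPS replicate 2. The Aig1 peak, in the gene of a hydrolase of fatty acid esters of hydroxy fatty acids, had 125, 252 and 260 in C57BL/6J LPS and 80.6, 75.4, 87.1 and 87.8 in C57BL/6J control libraries, and 195 and 188 in BALB/cJ LPS and 194, 188, 294 and 297 in BALB/cJ control libraries. Its difference of 1.72 ± 0.31 (edgeR adjusted p = 0.00378) was lost only without BALB/cJ LPS replicate 2 among the 13 fits that left out 1 library.

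At the peaks near Papd7 and Cd200 accessibility rose in C57BL/6J but stayed below the BALB/cJ level. Papd7 encodes a poly(A) polymerase, and its peak (chr13:69538385-69538585) had 103, 117 and 138 in C57BL/6J LPS and 31.9, 14.4, 45.5 and 26.6 in C57BL/6J control libraries, and 278 and 314 in BALB/cJ LPS and 167, 210, 264 and 219 in BALB/cJ control libraries (difference 1.52 ± 0.33, edgeR adjusted p = 0.0382). Cd200 encodes the ligand of an inhibitory receptor on myeloid cells, and the peak 31.5 kb from its start (chr16:45377448-45377648) had 14.0, 47.6 and 60.5 in C57BL/6J LPS and 1.16, 1.6, 2.6 and 1.33 in C57BL/6J control libraries. BALB/cJ had 179 and 189 there under LPS and 85.7, 44.9, 98.0 and 54.7 in control, so this peak opened in both strains (4.68 ± 0.53 and 1.41 ± 0.33 in C57BL/6J and BALB/cJ).

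Other named peaks had a negative LPS ratio in BALB/cJ, and among them those near Hif3a, Pomt1 and Pom121 had no called strain ratio in control. The Hif3a peak (chr7:17058292-17058492, intron 1 of 14), in a gene of the hypoxia-inducible factor family, had 153, 82.4 and 156 in C57BL/6J LPS against 47.0, 69.0, 59.8 and 71.8 in C57BL/6J control libraries. BALB/cJ had 27.9 and 20.2 under LPS against 46.1, 51.7, 89.9 and 55.9 in control. It therefore opened in C57BL/6J (1.09 ± 0.28) and closed in BALB/cJ (-1.32 ± 0.36), with no group overlap within a strain and a control strain ratio of 0.02 ± 0.27. The Hif3a call was lost without BALB/cJ LPS replicate 2. The Pomt1 promoter peak (chr2:32236507-32236707), of an O-mannosyltransferase gene, had 80.1, 91.7 and 66.9 in C57BL/6J LPS and 121, 104, 79.3 and 114 in C57BL/6J control libraries, and 25.3 and 20.2 in BALB/cJ LPS and 104, 103, 107 and 81.1 in BALB/cJ control libraries (difference 1.70 ± 0.36, edgeR adjusted p = 0.0361). At the Pom121 peak, in intron 1 of 30 of the clathrin adaptor gene Hip1, C57BL/6J had 156, 228 and 157 under LPS and 158, 209, 124 and 172 in control, which overlap, while BALB/cJ fell to 116 and 93.2 under LPS, against 235, 266, 212 and 240 in control. Wdfy3, a gene of a selective autophagy adaptor, had a peak with 0.50 ± 0.21 in C57BL/6J and -0.99 ± 0.24 in BALB/cJ, neither called, and a difference of 1.49 ± 0.31 (edgeR adjusted p = 0.0292). The Cd200, Papd7, Pom121, Pomt1 and Wdfy3 calls were lost when p-values were adjusted over the members alone, and all 5 were lost without BALB/cJ LPS replicate 2.

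Across the 56 called peaks, the absolute strain ratio was smaller under LPS than in control at 45, 30 of the 34 with the higher ratio in BALB/cJ and 15 of the 22 with the higher ratio in C57BL/6J, as in the plot of strain ratios. Over all tested peaks this share was 44%. Peaks selected for a difference in response must differ in strain ratio between the conditions, so this count describes the direction of that change and no test was made of it.

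**Figure D3:**
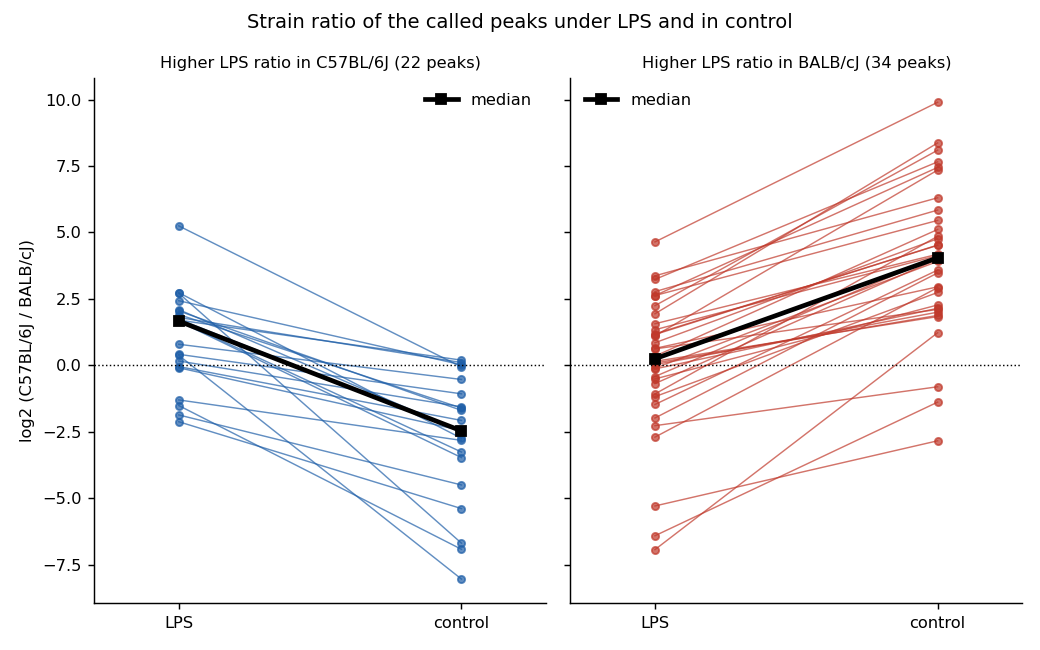
The log2 C57BL/6J to BALB/cJ ratio (y axis) under LPS and in control for each called peak (thin lines), with the median as a black line, separately for the 22 peaks with the higher ratio in C57BL/6J (left) and the 34 with the higher ratio in BALB/cJ (right). On the right the median is 0.25 under LPS and 4.04 in control, and on the left 1.66 under LPS and -2.47 in control.

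Called peaks were counted along the pathway of the LPS response itself. The peaks nearest to 227 genes in 12 lists ordered along the TLR4 pathway numbered 2686, and 4 of them were called (0.149%, against 0.0603% of all tested peaks). They were Rsad2 with the higher ratio in C57BL/6J, and Trib1, Ifnar2 and Ifi204 with the higher ratio in BALB/cJ. The median difference over the 2686 peaks was -0.003, and without BALB/cJ LPS replicate 2 only 1 peak was called, and without BALB/cJ control replicate 2 the call was made at 8. In C57BL/6J 478 of these peaks opened (17.8%) and 191 closed (7.11%), and in BALB/cJ 590 opened (22%) and 298 closed (11.1%).

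By role, the receptor complex and its adaptors (Tlr4, Ly96, Cd14, Myd88 and others, 146 peaks) opened at 10.3% of peaks in C57BL/6J and 11% in BALB/cJ, under the shares of all tested peaks. The peak of smallest p in this list, near Ly86, a homologue of the TLR4 co-receptor MD-2, had a difference of -7.22 ± 1.83 and did not pass (edgeR adjusted p = 0.152). The IRAK, TRAF and TAK1 kinases that carry the signal onward opened at 19.1% of 236 peaks in C57BL/6J and 26.3% in BALB/cJ, NF-kB subunits and their kinases at 17.7% and 25.3% of 79, and the feedback inhibitors of NF-kB at 19.5% and 22.5% of 262. None of the 3 lists held a called peak. The AP-1, ATF, EGR and MAF factors closed at 12.9% and 17.5% of 496 peaks and opened at 12.7% and 14.9%, in C57BL/6J and BALB/cJ, and the smallest p there was at a peak near Fosb (0.96 ± 0.22, edgeR adjusted p = 0.079).

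Target genes of the pathway followed. Cytokine and growth factor genes opened at 30.7% of 228 peaks in C57BL/6J and 34.2% in BALB/cJ, chemokine genes at 21.7% and 26.9% of 175, and interferon-stimulated genes at 28.4% and 34.6% of 243. No cytokine or chemokine peak was called between the strains, and the smallest p was at a peak near Il1b, the gene of interleukin-1-beta (-4.07 ± 0.94, edgeR adjusted p = 0.0727). Enzymes of itaconate, arginine and prostaglandin metabolism opened at 18.7% of 123 peaks in C57BL/6J and 26% in BALB/cJ. Class II major histocompatibility genes opened at 4.4% and 13.2% of 91 peaks and class I and peptide loading genes at 1.72% and 8.62% of 58, in C57BL/6J and BALB/cJ, with no called difference. Kupffer cell identity genes opened at 14.9% and 16.3% and closed at 10.5% and 14.7% of 484 peaks. The 6 lists of monocyte, neutrophil, lymphocyte, endothelial, hepatocyte and stellate cell markers had 0 called peaks, with 28 of their 318 peaks (8.81%, against 7.8% of all tested peaks) at an unadjusted p under 0.05. They opened at 18.3% and 22.6% of 115 peaks for monocytes, 14.7% and 29.4% of 34 for neutrophils, 25.8% and 16.1% of 31 for lymphocytes, 15.5% and 25.4% of 71 for endothelium, 32.4% and 29.4% of 34 for hepatocytes and 12.1% and 6.06% of 33 for stellate cells, in C57BL/6J and BALB/cJ. The lists and their percentages are drawn in the plot of peaks opened by LPS.

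9 genes discussed with these data had 110 tested peaks, of which 0 were called in the edgeR test, 18 (16.4%, against 7.8% of all tested peaks) had an unadjusted p under 0.05, 14 opened in C57BL/6J (12.7%, against 11.9%) and 29 in BALB/cJ (26.4%, against 16.3%). The Tnf promoter, of the gene of tumour necrosis factor, had a difference of -0.32 ± 0.46. A peak 11175 bases from Slc7a2, an arginine transporter gene, averaged 136 ± 37.7 (SD, n = 3) in C57BL/6J LPS and 67.0 ± 4.42 (n = 4) in C57BL/6J control, and 21.0 ± 2.34 (n = 2) in BALB/cJ LPS and 4.42 ± 2.25 (n = 4) in BALB/cJ control libraries. It opened in both strains (1.02 ± 0.26 and 2.17 ± 0.39) and the difference, -1.15 ± 0.47, did not pass (edgeR adjusted p = 0.534). The Plac8 promoter moved likewise, with 1.35 ± 0.48 in C57BL/6J, 3.01 ± 0.61 in BALB/cJ and a difference of -1.65 ± 0.77 (edgeR adjusted p = 0.607). The promoter of Trem2, a lipid receptor gene of macrophages, opened equally (1.19 ± 0.32 and 1.16 ± 0.34). A peak in an intron of Cxcr4, the receptor of CXCL12 (chr1:128590915-128591115), came closest to a call, closing in BALB/cJ (-2.39 ± 0.32) with -0.75 ± 0.27 in C57BL/6J. Its difference was 1.64 ± 0.41 (edgeR adjusted p = 0.134), and it was called with DESeq2, with the replicate number as a block and without BALB/cJ LPS replicate 1.

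Of the 56 called peaks, 5 (8.93%) lay within 1 kb of a gene start, against 22.1% of tested peaks. 3 of 56 (5.36%) were annotated as promoters, against 15.3% of tested peaks. 24 lay in introns (42.9%, against 43.7%) and 24 between genes (42.9%, against 34.4%). The median distance to the nearest start was 17.6 kb for called peaks and 10.8 kb for tested peaks, and all 19 autosomes held at least 1, with at most 7 on a chromosome. Of the motifs searched on both strands, AP-1 was found in 18 of the 56 (32.1%) and in 14.4% of all tested peaks, with 13 of 34 (38.2%) in the BALB/cJ direction and 5 of 22 (22.7%) in the C57BL/6J direction. MAF was found in 8 of 56 (14.3%) against 5.64%, and C/EBP (TTGCNNAA) in 8 of 34 (23.5%) and 1 of 22 (4.55%) against 11.6%. NF-kB was found in 4 of 34 and 0 of 22 against 5.34%, ISRE in 4 of 56 (7.14%) against 8.9%, PU.1 in 3 of 56 (5.36%) against 8.64%, STAT (TTCNNNGAA) in 3 of 56 against 6.03% and CRE (TGACGTCA) in 0 against 0.845%. AP-1 and MAF matches can overlap, and the letters are those of the C57BL/6J genome only.

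The CB6F1/J hybrid gave values from independent animals. 45 of the 56 called peaks overlapped a hybrid peak by at least 50% of each. On tags of both genomes, of 29 matched peaks with the higher ratio in BALB/cJ, 16 opened in the hybrid and 0 closed, and of 16 with the higher ratio in C57BL/6J, 3 opened and 4 closed. Those that closed were the satellite peaks near Gm5458, Nbea and Spag17 and a peak near Mir101c. At that Mir101c peak 77.4% of the window's 30-mers recur elsewhere in mm10. These repeat peaks also enter the median of the C57BL/6J direction. Of the 75724 matched tested peaks 21.7% opened and 9.36% closed. The median hybrid ratio was 1.3 in the BALB/cJ direction and -0.36 in the C57BL/6J direction, against 0.15 over all matched peaks. The Ece1 peak, for example, rose by 1.93 ± 0.29 in the hybrid, beside -0.09 in C57BL/6J and 4.60 in BALB/cJ.

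Tags that span a variant assign a read to its parental genome, and in the hybrid both genomes meet the same nucleus and the same LPS dose. 26 of the 45 matched peaks had enough such tags (57.8%, against 15.1% of matched tested peaks). The difference between the C57 and the BALB allele in response to LPS had the sign of the inbred difference at 21 of the 26, 7 of 7 in the C57BL/6J direction and 14 of 19 in the BALB/cJ direction, against 54.2% of the 11432 matched tested peaks. No peak passed adjustment (0 called, 0%, of 11432, with 970 at an unadjusted p under 0.05). 8 of the 26 had an unadjusted p under 0.05, all in the direction of the strain difference. The absolute allele ratio was smaller under LPS than in control at 20 of 26 peaks, against 54.5% of tested peaks, with medians of 0.92 under LPS and 2.04 in control. With a 90% overlap in place of 50%, 5 peaks remained and 3 had the same sign.

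The share of tags that span a variant was not steady between treatments. It moved by more than 2-fold between LPS and control animals at 19.3% of the matched tested peaks and at 7 of the 26, among them Bcl2l14 (0.254-fold under LPS), Aig1 (0.0376-fold) and Gsr (11.2-fold), and its part in the allele result was not tested. Among the 19 peaks with a share within 2-fold, 16 had the sign of the inbred difference, against 54.7% of 9230 tested peaks.

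The Rsad2 peak was the nearest to its parents. Normalised tags of the C57 allele were 47.1, 37.6, 23.9, 45.0 and 35.2 in the 5 LPS animals against 15.6, 19.1, 5.10 and 10.7 in the 4 control animals, and tags of the BALB allele 36.6, 41.7, 32.6, 39.3 and 54.3 under LPS against 54.7, 94.1, 88.0 and 39.3 in control. The C57 allele was lower in all 4 control animals, and under LPS neither allele was lower in all 5. The log2 allele ratio was -0.11 ± 0.26 under LPS and -2.40 ± 0.33 in control, and its change of 2.29 ± 0.42 (edgeR adjusted p = 0.273) stands beside 2.36 ± 0.46 between the strains. At the Bcl2l14 peak, with the unsteady variant share given above, the allele ratio was 0.35 ± 0.22 under LPS and -2.01 ± 0.22 in control, a change of 2.36 ± 0.31 (edgeR adjusted p = 0.0849). At Papd7 the change was 1.12 ± 0.28 (edgeR adjusted p = 0.462), against 1.52 between the strains.

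In the BALB/cJ direction, the C57 allele of the Ifitm10 peak had 23.2, 18.4, 8.70, 26.4 and 33.2 tags in the 5 LPS animals against 5.86, 4.41, 5.10 and 4.76 in the 4 control animals. Its BALB allele had 22.5, 13.4, 5.44, 11.4 and 5.03 under LPS against 0 in all 4 controls. For each allele every LPS animal was above every control animal, but the fitted change of -4.47 ± 1.32 (edgeR adjusted p = 0.521) rests on a group at 0 and is no bound. The Vsig8 peak had an allele ratio of 2.77 ± 0.31 under LPS and 3.53 ± 0.43 in control, and a change of -0.76 ± 0.56 against -6.24 between the strains. The Trib1 and Ifi203 peaks kept their allele ratios nearly constant (changes of -0.22 ± 0.61 and -0.22 ± 0.43). At the peaks near Nr2c1, Gsr, Slc11a2, Itgae and Zfp493, all of the BALB/cJ direction, the sign was opposite to that of the inbred difference, with changes from 0.13 at Slc11a2 to 2.96 at Gsr and SEs from 0.57 at Zfp493 to 1.5 at Gsr.

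**Figure D4:**
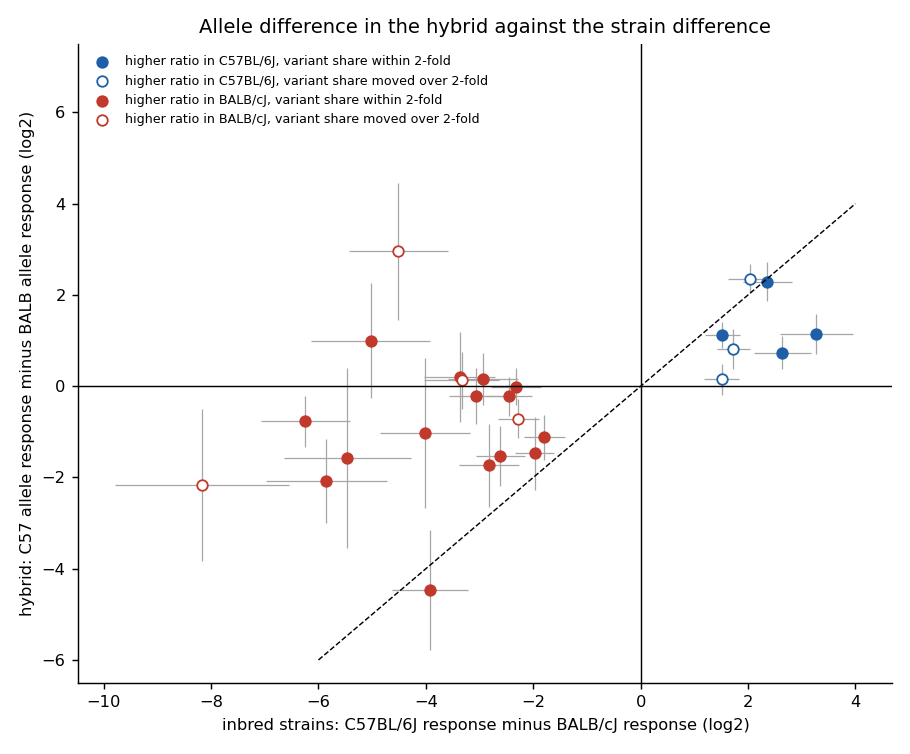
The change of the C57 to BALB allele ratio under LPS in the hybrid (y axis, log2, whiskers SE) against the strain difference in the LPS response of the inbred mice (x axis, log2, whiskers SE) for the 26 called peaks with variant-spanning tags. The dashed line marks equal values, open points mark peaks whose share of variant-spanning tags moved over 2-fold, and 21 of 26 points lie in the quadrants of equal sign.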

How the data were processed

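ATAC-seq of sorted Kupffer cells was taken from the tables the authors deposited. Per the file headers and the study's methods, the authors mapped reads with Bowtie2 to strain genomes made from mm10, moved coordinates to mm10 and gave raw HOMER tag counts in windows of 1000 bases around merged peaks, with values of the control libraries in steps of 0.5, recorded as estimated counts in the table the authors deposited and rounded up here. The hybrid table holds deposited counts of tags that span a variant and of perfectly mapped tags for each genome. Hybrid LPS responses used the mean of the perfectly mapped tags of both genomes, because the control columns of all tags did not match them. The total tags of each library came from the deposited peak files, whose normalised tag count is a signal scaled by the authors.

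The difference in response was an interaction contrast in edgeR 4.0.16 (R 4.3.3, quasi-likelihood test, TMM) over the 17 inbred libraries (4 of them A/J control), with Benjamini-Hochberg adjustment over all tested peaks, X and Y included. Calls needed both an absolute log2 value over 1 and an adjusted p under 0.05, and peaks were tested at a mean normalised count over 4 in the 13 libraries. The allele term was fitted in edgeR with a term for each of the 9 hybrid animals, at peaks with a reciprocal overlap of 50% and a mean over 4 per allele. SEs are the log2 value over the root of F. The methods were tested on simulated data. DESeq2 1.42.0, limma 3.58.1 and the other alternatives are compared in the closing section.

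Named peaks were, in each direction, up to 12 called peaks of the smallest p within 100 kb of a start, 1 per gene, without predicted, microRNA, snoRNA, olfactory or ribosomal genes and without peaks in which at least 50% of the window's 30-mers recur in mm10. Up to 3 genes per list with a called peak were added, and for each of 9 study examples the promoter peak and the peak of the smallest p. 4930529L06Rik, Fat4, Dclre1a, Sp110, Gsr, Slc11a2, Itgae, Zfp493, Ly86, Fosb and Il1b fall outside this rule or were singled out after their values were seen. Members, gene lists and tests were chosen with earlier results of these data known. The labels do not say that replicates are separate animals for the inbred strains, so p-values measure the spread between these libraries. Titles of the hybrid samples have the same form, and each hybrid library was taken here as a separate animal. SEs come from the quasi-likelihood F and so include the fitted spread between libraries.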

Additional observations from a re-analysis of the deposited data

Results flagged for a closer look

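Values far from the rest of their group were found in 5 of 88 groups examined, where chance gives about 1 in 20. They were the Ifitm10 peak in BALB/cJ control replicate 1 (7.91 normalised counts), the Ifnar2 peak in BALB/cJ control replicate 3 (1.34), the Pomt1 peak in BALB/cJ control replicate 4 (81.1), the Med21 example peak of the smallest p in C57BL/6J control replicate 3 (44.2), and the total of BALB/cJ control replicate 4 (178.3326 M tags).

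The LPS response differed between the strains, by the edgeR test of the difference itself, at 56 peaks. Among the named ones the log2 difference was negative, with the higher ratio in BALB/cJ, at the peaks near Ece1 (-4.69), Vsig8 (-6.24), Trib1 (-3.07), Zfp691 (-2.62), Ifi203 (-2.45), Ifitm10 (-3.92), Ppp1r15a (-3.92), Odc1 (-5.85), Dnah7a (-2.83), Nr2c1 (-3.37), Ifnar2 (-4.82), Ttc27 (-2.32), B4galt3 (-4.42) and Ifi204 (-6.43). It was positive, with the higher ratio in C57BL/6J, at the peaks near Aig1 (1.72), Hif3a (2.41), Bcl2l14 (2.03), Rsad2 (2.36), Spag17 (4.59), Pom121 (1.33), Cd200 (3.27), Wdfy3 (1.49), Pomt1 (1.70) and Papd7 (1.52).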

How the results depend on the processing

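The 56 called peaks numbered 11 to 103 when 1 library was left out, with 11 without BALB/cJ LPS replicate 2, 33 without C57BL/6J control replicate 1 and 103 without BALB/cJ control replicate 2. DESeq2 called 105, of which 51 were among the 56. With p-values adjusted over the members alone 32 were called, since the called peaks of the chromosome 11 interval then left the adjustment, and without peaks of repeated sequence 29. The other settings gave 39 to 65. Of the 56, 26 were also called with limma voom with quality weights and 30 with every library thinned to the smallest. With a minimum mean count of 16, 42 were, and with total tags in peaks in place of TMM all 56. The 4 called peaks of the gene lists numbered 1 to 8 with 1 library left out, 1 with every library thinned to the smallest, 2 with limma voom and 7 with DESeq2. The allele term had the sign of the inbred difference at 3 peaks with a 90% overlap, where 5 were left, and at 19 to 22 with 1 hybrid animal left out. Apart from the settings whose construction shows it, the cause was not tested. Of 642 values of the 24 named peaks under the alternatives, 532 kept their call, 110 were not called and 0 reversed. Of 480 values of the 18 example peaks, 3 passed, all at the Cxcr4 intron peak.

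With the replicate number as a block 116 peaks were called, 55 of them among the 56. The numbers were not taken as pairs in the main fit. Of 16 same-numbered pairs 4 had a correlation of deviations over 0.1, with a range of -0.11 to 0.28. In 14 of 32 comparisons of a library with another group the highest correlation was with its own number. These values cannot settle whether the numbers pair the libraries, because the deviations of the 2 BALB/cJ LPS libraries mirror each other by construction. Leaving out 1 of the 2 BALB/cJ LPS libraries leaves a lone library, which is assumed to vary like the other groups.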
